A study of Mus musculus with 18 samples.

Results

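miR-210 is a microRNA (miRNA), a short RNA that guides silencing complexes to messenger RNAs by base pairing, chiefly through its seed at bases 2 to 8. It is known as the miRNA most regularly induced by low oxygen: the hypoxia-inducible factors (HIF), which prolyl hydroxylases mark for destruction when oxygen is plentiful, raise the transcription of its gene. Its best-known targets include Iscu, a scaffold protein for iron-sulphur clusters, and other genes of mitochondrial respiration. Among the 1978 mature miRNAs in the table of 203513 features, 2 rows belong to miR-210, mmu-miR-210-3p and mmu-miR-210-5p, the products of the 3′ and the 5′ arm of the Mir210 hairpin. They were chosen by name, with their counts in all 6 groups of samples already known, so their levels and differences are given as descriptions, without a test.

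Small RNA was sequenced from 18 libraries of brain cells of untreated 10-month-old mice, either wild type (WT) or homozygous for Atxn2-CAG100-KIN (KIN), a knock-in of an expanded CAG repeat into the Atxn2 gene on a C57BL/6 background. Whole brains were dissociated and sorted with magnetic beads in sequence, first for CD11b (the fraction labelled microglia), then for ACSA-2 (astrocytes), while neurons were the cells left unbound after beads against non-neuronal cells and CD31. The 3 fractions were taken from the same brains, so libraries of different fractions can share an animal, but the labels do not say which do. Each fraction gave 3 WT and 3 KIN libraries, a fraction being defined by its beads alone, so that CD11b+ cells may include myeloid cells other than microglia. The study used pairs of WT and KIN littermates of the same sex, with both sexes among the pairs. The labels give neither the sex nor the pair of a library.

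Library totals were 3144427 to 4316748 counts in the astrocyte and microglia fractions and 1211118 to 2427384 in the neuron fraction. Mature miRNAs took 5.05% to 8.31% of the counts in astrocytes WT, 8.43% to 10.4% in astrocytes KIN, 5.09% to 5.99% in microglia WT and 5.86% to 8.46% in microglia KIN, but 0.964% to 2.13% in neurons. The summed level of 5 miRNAs of CD11b+ myeloid cells (miR-142a-3p, miR-142a-5p, miR-223-3p, miR-146a-5p and miR-150-5p) was 8823 to 19217 CPM (counts-per-million of the library total) in microglia, 130 to 216 CPM in astrocytes and 457 to 904 CPM in neurons. One of the 5, miR-150-5p, went the other way in WT, with a mean of 98.1 CPM in microglia, 162 CPM in astrocytes, where it was most of the sum, and 365 CPM in neurons. The summed level of 5 neuron miRNAs (miR-124-3p, miR-128-3p, miR-138-5p, miR-132-3p and miR-212-3p) was 52.8 to 242 CPM in the fraction labelled neurons against 1053 to 3229 CPM in astrocytes. In CPM the neuron label was thus not borne out by these markers, and miR-212-3p was at 0 in neurons KIN. The miR-9 pair of the neural lineage summed to 964 to 4079 CPM in neurons and 5835 to 9496 CPM in astrocytes. These sums are shares of library totals, of which miRNA was a smaller part in neurons. Because the samples are bulk RNA, fewer cells of a type and less RNA per cell cannot be told apart in any of the values that follow.

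The sequences of both arms are shown because the seed, in capitals and counted from 1 at the 5′ end, decides which messages each arm can pair with.
mmu-miR-210-3p: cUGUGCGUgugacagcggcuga
mmu-miR-210-5p: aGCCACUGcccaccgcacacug
Both are 22 bases long. The deposited table and RefSeq (build GRCm38.p6) gave the same letters. None of the other mature miRNAs in the table shared the seed of either arm, so neither row had a seed family to be confused with. In GRCm39, the build that the authors aligned to, the 3p arm lies at chr7:140801320-140801341 and the 5p arm at chr7:140801358-140801379, both on the minus strand, as bases 66 to 87 and 28 to 49 of the 110-base hairpin of Mir210 (chr7:140801297-140801406). It lies within the long non-coding RNA gene Gm72526 (chr7:140800286-140801670, minus strand), in the exon of one of its transcripts and in an intron of the other. None of the rows of the table was a transcript of Gm72526. The nearest protein-coding genes on either side, Rassf7 (chr7:140795047-140798582) and Phrf1 (chr7:140808368-140842681), both lie on the plus strand.

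In microglia, miR-210-3p was several times higher in KIN than in WT, in astrocytes the genotypes overlapped, and in neurons there was hardly a read. Microglia WT had 30, 35 and 34 counts in replicates 1, 2 and 3, and microglia KIN had 138, 290 and 332. In CPM this was 9.33 ± 0.720 (SD, n = 3; 8.64 to 10.1) against 62.8 ± 17.2 (43.8 to 77.3). The lowest KIN library thus lay more than 4 times above the highest WT library, and KIN replicate 1 was the lowest of its group. The log2 fold change, fitted with edgeR on all features of the fraction, was 2.95 ± 0.29 (SE), or 7.71-fold. Every KIN library lay above every WT library for 21.7% of the 382 mature miRNAs and for 8.12% of the 4940 features tested in microglia. edgeR called 4.35% of these features in all (adjusted p no higher than 0.05, log2 change of 1 or more), 1.42% higher and 2.94% lower in KIN. Without WT replicate 1 it called none in either direction, and the log2 fold change of miR-210-3p was then 2.75 ± 0.36.

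The genotypes were also apart relative to the miRNA content of each library. As counts-per-million of all mature miRNA counts, miR-210-3p stood at 173 ± 22.4 in microglia WT (155 to 198) and at 822 ± 91.6 in microglia KIN (748 to 925), and scaling to mature miRNAs gave a log2 fold change of 2.55 ± 0.26. On this scale the 3 KIN libraries were closer together than in CPM. In the order of mean CPM, miR-210-3p was at place 167 of the 725 mature miRNAs with a count in microglia WT and at place 95 of 721 in microglia KIN. Among the fitted fold changes of the 382 mature miRNAs of microglia it took place 4. Just above it was miR-551b-3p (2.99 ± 0.77), which rested on 3 counts in WT and 26 in KIN, and just below was miR-155-5p (2.43 ± 0.30), with 113 and 609. miR-210-3p had 99 counts over WT and 760 over KIN.

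Other values of the microglia libraries moved with genotype too. The summed level of the 5 myeloid miRNAs was 8823 to 9990 CPM in WT and 12461 to 19217 CPM in KIN. Most of it was miR-146a-5p, with means of 6094 CPM in WT and 11752 CPM in KIN. Of the 5 it alone was called higher (log2 fold change 1.16 ± 0.18, edgeR adjusted p = 0.0162), as were 8.38% of the mature miRNAs. The others were miR-223-3p at 0.27 ± 0.25, miR-142a-5p at 0.32 ± 0.22, miR-150-5p at 0.78 ± 0.29 and miR-142a-3p at 0.91 ± 0.22. The 5 neuron miRNAs summed to 64.8 to 170 CPM in WT and 51.8 to 62.5 CPM in KIN, and miR-124-3p was called lower (−1.28 ± 0.31, edgeR adjusted p = 0.0485), as were 2.09% of the mature miRNAs. The miR-9 pair of the neural lineage summed to 82.3 to 245 CPM in WT and 59.1 to 68.6 CPM in KIN. The 3 erythroid miRNAs summed to 17.3 to 22.2 CPM in WT, where miR-144-3p was at 0, and to 28.6 to 131 CPM in KIN. Of these, miR-451a had a log2 fold change of 1.80 ± 0.50 and miR-486a-5p of 2.23 ± 0.64, and neither was called. The mural cell pair summed to 145 to 202 CPM in WT and 59.4 to 136 CPM in KIN, and neither of the pair was called. The sums of the endothelial pair (215 to 265 against 118 to 236 CPM) and of the 3 oligodendrocyte miRNAs (31.1 to 33.5 against 28.6 to 43.3 CPM) overlapped. KIN replicate 2 had the highest erythroid sum, and without it the fold change of miR-210-3p was 2.95 ± 0.34. The remaining KIN libraries still had erythroid sums above all WT libraries, so that fit did not take the erythroid difference away. The part of these shifts in the miR-210-3p difference was not tested.

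Astrocytes WT had 25, 67 and 32 counts of miR-210-3p, and astrocytes KIN had 55, 47 and 56. The CPM was 11.5 ± 4.70 (7.95 to 16.8) in WT and 14.7 ± 1.48 (13.1 to 16.0) in KIN. WT replicate 2 lay above every KIN library, and the other 2 WT libraries lay below them all. The log2 fold change was 0.46 ± 0.33, place 248 among 418 mature miRNAs, in a fraction where edgeR called 8.18% of 5694 features, 1.79% higher and 6.39% lower. Without WT replicate 2 it was 0.87 ± 0.27, and scaled to mature miRNAs it was −0.10 ± 0.35, so its direction hung on the scale. As counts-per-million of all mature miRNA counts, WT stood at 173 ± 25.5 and KIN at 159 ± 17.9.

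In neurons, miR-210-3p had 1 count in each of the 3 WT libraries and 1, 0 and 0 counts in KIN. With so few counts, at or under the 3 that a value of 0 cannot be told from, the genotypes could not be compared, and the row did not pass the filter of at least 5 counts in at least 2 libraries. The level was 0.664 ± 0.157 CPM in WT and 0.142 ± 0.246 CPM in KIN. As counts-per-million of all mature miRNA counts it was 57.5 ± 29.7 and 6.68 ± 11.6.

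**Figure D1:**
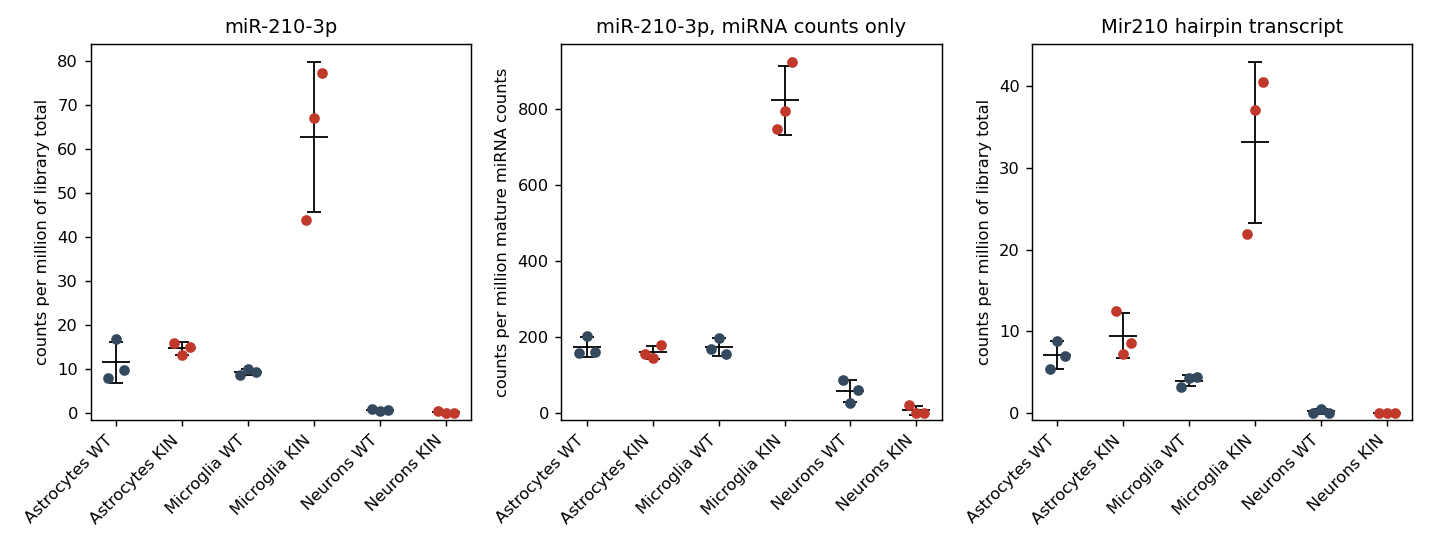
Levels of miR-210-3p (left, CPM; middle, counts-per-million of all mature miRNA counts) and of the row of the Mir210 hairpin transcript (right, CPM) in each of the 18 libraries, with the group mean and SD as a bar and whiskers. Dark points are WT and red points are KIN. The 3 microglia KIN libraries, at 43.8 to 77.3 CPM in the left panel, lie above the other 15 in every panel, and the neuron libraries lie at or near 0 in CPM.

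Across the 6 groups, the CPM fell in the order microglia KIN, astrocytes KIN, astrocytes WT, microglia WT, neurons WT and neurons KIN. Microglia KIN stood apart from the next group. The ranges of astrocytes KIN and astrocytes WT overlapped, as did those of astrocytes WT and microglia WT. Neurons WT were below all glial libraries, while the lower end of the order, neurons WT against neurons KIN, rested on 3 counts and 1 count.

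In WT, microglia and astrocytes had much the same level. The difference of microglia from astrocytes, in 1 edgeR fit of all 18 libraries, was −0.25 ± 0.39 on the log2 scale, and it turned to 0.35 ± 0.41 without astrocytes WT replicate 2. In KIN the same difference was 2.22 ± 0.38, or 4.67-fold. The median difference over the mature miRNAs was −0.30 in WT and −0.36 in KIN. The KIN effect in microglia was larger than that in astrocytes by 2.48 ± 0.54 on the log2 scale, and by 1.96 to 2.79 when any 1 of the 12 glial libraries was left out.

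Against neurons, ratios of pooled counts were used. In WT the pooled CPM of astrocytes was 18.6 times that of neurons (exact 95% interval 6.23 to 91.6, from 124 against 3 counts) and that of microglia 14.6 times (4.85 to 72.0, from 99 against 3). These intervals take each count as a separate molecule and cover counting error only. Per mature miRNA count the same ratios were 3.95 (1.32 to 19.4) and 3.78 (1.26 to 18.6), since neuron libraries held a smaller share of miRNA. In KIN, 158 counts in astrocytes and 760 in microglia stood against 1 count in neurons, giving ratios of 106 (18.7 to 4204) and 465 (83.2 to 18391), or 19.2 (3.39 to 762) and 101 (18.1 to 4005) per mature miRNA count.

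miR-210-5p, the arm that is mostly discarded during processing, was rare everywhere. Microglia WT had 1, 0 and 1 counts and microglia KIN 3, 5 and 10. For this arm the KIN libraries all lay above the WT libraries, as they did for 21.7% of the 382 mature miRNAs. Its fitted log2 fold change in microglia, 3.00 ± 0.87, rested on 2 counts in WT, which is under the floor of 3, against 18 in KIN, and the row passed the filter only through KIN. Astrocytes had 1, 0 and 0 counts in WT and 0, 1 and 3 in KIN, under the filter, and all 6 neuron libraries had 0. Over the pooled neuron libraries a count of 0 allows up to 3 counts.

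The balance of the arms was alike in the glial groups. The 3p arm made up 99.2% of the miR-210 counts in astrocytes WT (exact Clopper-Pearson 95% interval 95.6% to 99.98%), 97.5% in astrocytes KIN (93.8% to 99.3%), 98.0% in microglia WT (93.0% to 99.8%) and 97.7% in microglia KIN (96.4% to 98.6%). The interval of each group held the share of the other 3, apart from microglia KIN, whose upper bound lay below the share of astrocytes WT.

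The table also held a row for the hairpin, transcript Mir210-201 (ENSMUST00000083617), filled in a later round of alignment by reads that had not aligned to a mature miRNA. A count table does not show whether these reads came from the precursor or from mature arms that failed the earlier alignment. The hairpin row had 11, 15 and 16 counts in microglia WT and 69, 160 and 174 in microglia KIN, which is 3.95 ± 0.678 against 33.2 ± 9.89 CPM. KIN replicate 1 was again the lowest of its group and still above all WT libraries. For 8.12% of the features tested in microglia, every KIN library lay above every WT library. The log2 fold change was 3.26 ± 0.33. In astrocytes it had 17, 35 and 23 counts in WT and 43, 26 and 32 in KIN, overlapping ranges with a log2 fold change of 0.53 ± 0.34. In neurons a single WT library, replicate 2, had 1 count.

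The hairpin row took 29.2% ± 2.68 (SD, n = 3; 26.2% to 31.4%) of all counts of the locus in microglia WT and 33.9% ± 1.17 (32.9% to 35.2%) in microglia KIN. These ranges did not overlap, but the exact 95% intervals of the pooled shares did, 22.1% to 37.6% in WT and 31.4% to 36.9% in KIN. In astrocytes the share was 38.6% ± 3.85 in WT and 38.1% ± 5.04 in KIN.

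The neighbouring genes had few reads in a small RNA library. Rassf7, a Ras-association domain gene, had 1 count in all 18 libraries. Phrf1, which encodes a PHD and RING finger protein, had 17 counts over astrocytes WT, 6 over astrocytes KIN, 21 over microglia WT, 5 over microglia KIN, 11 over neurons WT and 12 over neurons KIN. In microglia KIN neither neighbour had more counts than in microglia WT, but so few fragments do not show how either gene was transcribed.

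**Figure D2:**
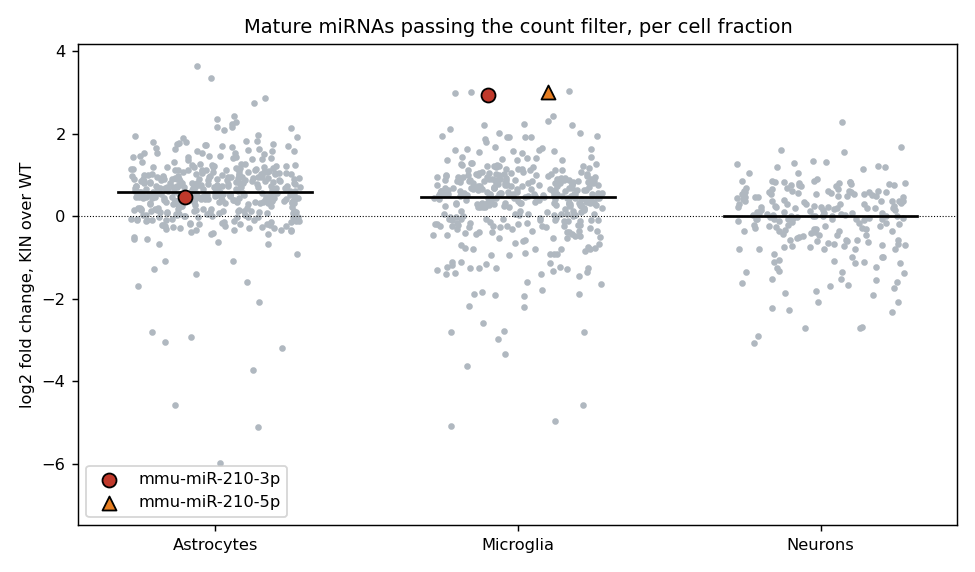
Log2 fold change of KIN over WT for the mature miRNAs that passed the count filter (418 in astrocytes, 382 in microglia, 217 in neurons). Grey points are miRNAs, black lines are medians, the red circle is miR-210-3p and the orange triangle miR-210-5p. Both lie near 3 in microglia, where miR-210-5p rests on 2 WT counts. miR-210-3p lies close to the median of 0.58 in astrocytes, and neither arm passed the filter in neurons.

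Which other miRNAs of the hypoxia response differed was asked with a list of 15 that have been described as raised by low oxygen. In microglia, 5 of them were called higher in KIN: miR-155-5p (log2 fold change 2.43 ± 0.30, edgeR adjusted p = 0.00692), a miRNA of activated myeloid cells, miR-21a-5p (2.01 ± 0.25, adjusted p = 0.00692), which is raised in many forms of tissue injury, miR-27b-3p (1.41 ± 0.24, adjusted p = 0.0218), miR-27a-3p (1.03 ± 0.23, adjusted p = 0.0402) and miR-107-3p (1.04 ± 0.22, adjusted p = 0.0334). The other 10 were not called. Over all 382 mature miRNAs of the fraction 8.38% were called higher, and the median of the list, 0.68, stood beside 0.46 for all mature miRNAs. The list holds miRNAs with functions outside the oxygen response, miR-155-5p and miR-21a-5p among them.

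The values by library show how the called miRNAs compare with miR-210-3p. miR-155-5p had 33, 42 and 38 counts in microglia WT and 114, 292 and 203 in KIN. miR-21a-5p, more abundant by far, had 3037, 3162 and 4271 against 6623, 19624 and 16058. In both, as in miR-210-3p, KIN replicate 1 was the lowest KIN library and lay above all WT libraries. This ordering of all KIN above all WT libraries in CPM held for 21.7% of the mature miRNAs. miR-107-3p had 230, 166 and 217 counts against 249, 454 and 513, which in CPM was 47.8 to 66.2 against 79.1 to 119. Their sequences are shown for the seeds, of which that of the miR-27 pair was shared and none was that of miR-210.
mmu-miR-155-5p: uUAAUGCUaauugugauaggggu
mmu-miR-21a-5p: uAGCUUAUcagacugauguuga
mmu-miR-27a-3p: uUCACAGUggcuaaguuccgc
mmu-miR-27b-3p: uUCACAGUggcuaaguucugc
mmu-miR-107-3p: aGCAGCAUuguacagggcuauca
They come from separate hairpins, at chr16:84511031-84511053 (plus strand), chr11:86474946-86474967 (minus strand), chr8:84935356-84935376 (plus strand), chr13:63448574-63448594 (plus strand) and chr19:34798100-34798122 (minus strand) of GRCm39. The miR-27 pair differs at 1 base, and a count table does not show whether reads of one were counted for the other. The 5 calls became 0 without WT replicate 1 or KIN replicate 3, 1 without WT replicate 3 (miR-21a-5p) and 2 without KIN replicate 2 (miR-21a-5p and miR-155-5p). miR-21a-5p, miR-155-5p and miR-27b-3p were still called when counts were scaled to library totals or to mature miRNAs.

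In astrocytes, 1 of the 15 was called higher, miR-181a-5p (1.01 ± 0.18, edgeR adjusted p = 0.0111), which is abundant in brain and lymphoid cells, while 11.2% of the 418 mature miRNAs were. Its WT libraries lay at 1003 to 1635 CPM and its KIN libraries at 2184 to 2581 CPM, and every KIN library lay above every WT library for 34.7% of the mature miRNAs. All 15 had positive fold changes, with a median of 0.73 beside 0.58 for all mature miRNAs. Without WT replicate 2 the count was 9, and without any of the other 5 libraries it was 0. Scaled to library totals or to mature miRNAs, none was called. In neurons, 13 of the 15 passed the filter and none was called by edgeR or DESeq2, as none was of all 4535 features, of which 197 had an unadjusted p under 0.05.

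A second list held 5 miRNAs described as acting on HIF or its regulators. In astrocytes, where 11.2% of all mature miRNAs were called higher, 3 of the 5 were, miR-18a-5p (1.92 ± 0.28, edgeR adjusted p = 0.00528), miR-20a-5p (1.80 ± 0.25, adjusted p = 0.00470) and miR-17-5p (1.71 ± 0.24, adjusted p = 0.00470), which are made from the same primary transcript, the miR-17-92 cluster, and are known to target Hif1a among many cell cycle genes. miR-18a-5p had 12, 17 and 14 counts in WT and 54, 48 and 52 in KIN, and miR-17-5p had 77, 181 and 120 against 411, 351 and 390. These 3 calls held without any single library and under each scaling. Single markers of other cell types were also called higher in astrocytes KIN. Of the 5 myeloid miRNAs this held for 1, miR-142a-3p (1.97 ± 0.33, edgeR adjusted p = 0.00975). Not called were miR-142a-5p (1.53 ± 0.68), miR-223-3p (0.70 ± 0.36) and miR-146a-5p (0.68 ± 0.32), while miR-150-5p was at −0.31 ± 0.20. Of the 3 oligodendrocyte miRNAs it held for 1, miR-219a-5p (1.11 ± 0.21, edgeR adjusted p = 0.0151). The 3 oligodendrocyte miRNAs summed to 1770 to 3035 CPM in WT and 3351 to 5112 CPM in KIN. The sums of the 5 myeloid miRNAs overlapped, with means of 190 CPM in WT and 178 CPM in KIN. Most of each sum was miR-150-5p, with means of 162 CPM in WT and 119 CPM in KIN. The part of these markers in the astrocyte differences was not tested. The 3 called miRNAs of the miR-17-92 cluster come from 1 transcript and are not separate observations. Of them, miR-17-5p and miR-20a-5p share a seed that in miR-18a-5p differs.
mmu-miR-17-5p: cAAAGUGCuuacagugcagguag
mmu-miR-20a-5p: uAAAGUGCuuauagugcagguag
mmu-miR-18a-5p: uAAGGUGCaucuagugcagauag
They lie on the plus strand of chromosome 14, at chr14:115281116-115281138, chr14:115281615-115281637 and chr14:115281299-115281321 (GRCm39). In microglia 1 of the 4 that passed the filter was called, miR-18a-5p (1.13 ± 0.27, edgeR adjusted p = 0.0467), and it was not called under either other scaling or without WT replicate 1 or 3 or KIN replicate 2 or 3. miR-138-5p, which also stands on the neuron list, was at −0.45 ± 0.45 in microglia. In neurons 4 passed the filter and none was called by either tool.

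**Figure D3:**
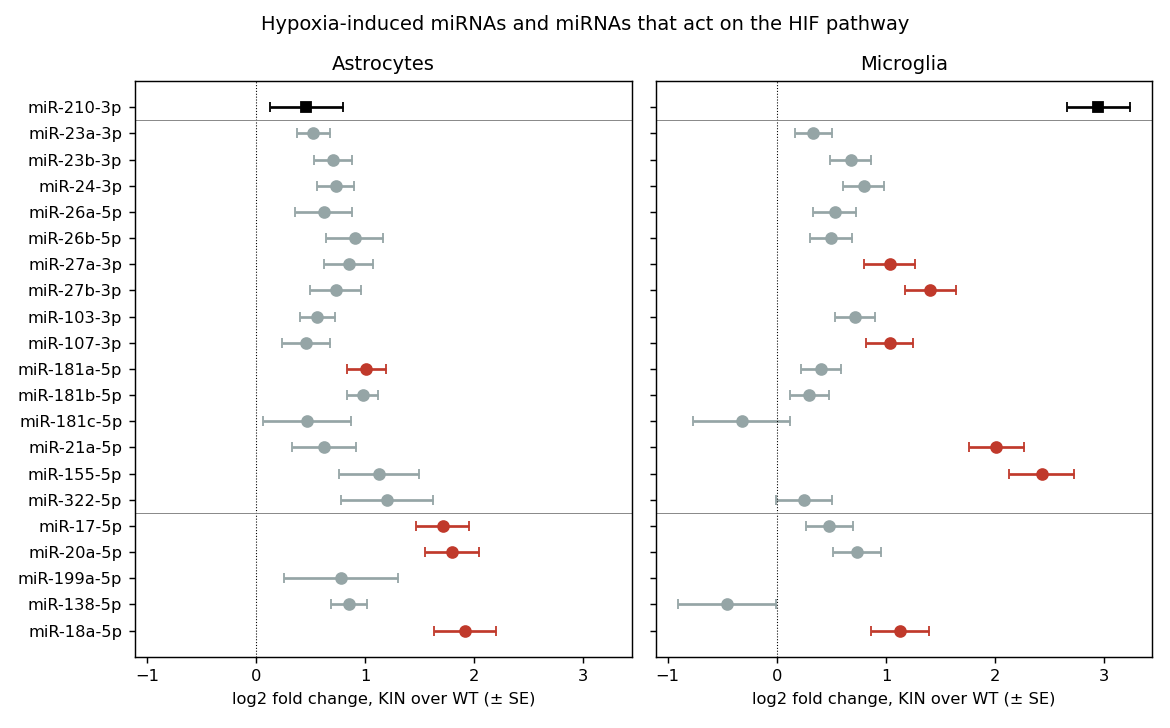
Log2 fold change of KIN over WT with its SE for miR-210-3p (black square, no test made), the 15 other hypoxia-induced miRNAs and, below the lower line, 5 miRNAs that act on the HIF pathway. Red circles were called by edgeR and grey circles were not. In microglia miR-210-3p, at 2.95, lies above the highest listed miRNA (miR-155-5p, 2.43), and in astrocytes, at 0.46, it lies among the lower ones.

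None of the 20 listed miRNAs differed between microglia and astrocytes in its KIN effect by the edgeR test of that difference. The differences closest to the threshold were those of miR-21a-5p, 1.40 ± 0.52 (edgeR adjusted p = 0.422), miR-17-5p, −1.24 ± 0.54 (0.588), and miR-155-5p, 1.29 ± 0.58 (0.632). Of all 8204 features tested in this way, 0.146% had an adjusted p of at most 0.05. With the replicate number within genotype as a block, since fractions share brains, again none of the 20 passed (lowest edgeR adjusted p = 0.200), and 1.04% of the features did. A call in one fraction and not in the other is therefore no sign that the fractions differ for these miRNAs.

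Messenger RNA fragments gave a much weaker view of the oxygen response. The list of 16 oxygen sensors and HIF subunits had a median sum of 42 counts over all 18 libraries. Hif1a, the oxygen-labile subunit of HIF-1, had 9, 3 and 7 counts in microglia WT and 4, 10 and 9 in microglia KIN (log2 fold change 0.40 ± 0.48). In astrocytes it had 6, 19 and 15 against 7, 5 and 5 (−1.04 ± 0.48, edgeR adjusted p = 0.161), and in neurons 0, 5 and 4 against 5, 5 and 6 (0.29 ± 0.80). In each fraction the Hif1a counts of the genotypes overlapped. No gene of this list was called in any fraction, with 5 of 16 tested in astrocytes, 4 in microglia and 6 in neurons. Epas1, which encodes HIF-2α and is strong in endothelium, was lowest relative to WT in microglia, with 12, 4 and 9 counts against 1, 2 and 0 (−2.77 ± 0.77, edgeR adjusted p = 0.0640), and it was called lower without WT replicate 2. In astrocytes it had 21, 29 and 15 counts against 10, 7 and 7 (−1.25 ± 0.39, edgeR adjusted p = 0.0576), and it was likewise called lower without WT replicate 2, together with Arnt2, and with library totals.

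Of 42 HIF target genes, 22 passed the filter in astrocytes, 10 in microglia and 13 in neurons. None was called higher in KIN by edgeR in any fraction, nor lower outside astrocytes, while among all features summed by gene in microglia 1.37% were called higher and 3.32% lower. In microglia, the fraction where miR-210 was high, 8 of 10 had negative fold changes, with a median of −0.56 beside −0.18 for all features with transcripts summed by gene. Vegfa, the vascular growth factor, had 0, 1 and 0 counts in microglia WT and 1, 1 and 0 in KIN. Egln3, the hydroxylase that HIF itself induces, had 1 count in each genotype, and Bnip3, a mitophagy receptor, had 0 counts in WT and 3 in KIN. At this depth a change in these transcripts was not detectable. The row of Car9, carbonic anhydrase 9, was unlike the rest, with 130 to 14925 counts in a library where no other gene of the list exceeded 102. Of its counts 50.3% lay on 1 of its 7 transcripts, and a count table does not show whether these reads came from Car9 messenger RNA. In microglia its log2 fold change was 0.93 ± 0.31 (edgeR adjusted p = 0.106), with 6718, 4009 and 5802 counts in WT and 3823, 11663 and 14925 in KIN, and DESeq2 called it higher, as did edgeR without KIN replicate 1.

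In astrocytes 3 HIF target genes were called lower in KIN, where 6.33% of all gene-level features were called lower and 2.24% higher. Vegfa had 11, 21 and 25 counts in WT and 1, 5 and 8 in KIN (−1.84 ± 0.55, edgeR adjusted p = 0.0483). Aldoc, the aldolase of astrocytes, had 102, 101 and 87 against 40, 34 and 33 (−1.26 ± 0.27, edgeR adjusted p = 0.0153), and Eno1, a glycolytic enolase, had 27, 18 and 27 against 8, 10 and 7 (−1.35 ± 0.38, edgeR adjusted p = 0.0410). The genotypes did not overlap in any of the 3, nor did they for 36.7% of the 5694 features tested one by one. The median log2 fold change of the 22 tested was −0.57, beside −0.27 for all gene-level features. Without WT replicate 1, with DESeq2 and with single transcripts, Aldoc alone was called, without WT replicate 3 or any KIN library none was, and none was in 1 fit of 18 libraries. Egln3 had 0 counts in astrocytes WT and 2 in KIN, and Bnip3 had 1 and 4. In neurons none of the 13 was called by edgeR or DESeq2, and Vegfa had 14 counts in either genotype.

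The described targets of miR-210 were searched for sites. In the 3′ untranslated regions of 15 genes described as targets, a match to the 3p seed (ACGCACA, searched on the sense strand of the canonical GENCODE vM39 transcript) was found in 4, Iscu, Efna3, Gpd1l and Fgfrl1. It is present in 3.48% of 20721 such regions. Genes described as targets are not a random sample of these, and no enrichment was tested. The regions searched in the 15 genes ranged from 64 bases (Ndufa4) to 4155 bases (Fgfrl1). A match to the 5p seed (CAGTGGC) was found in 2 of the 15, and in 13.5% of all. The sites in Iscu, Efna3 and Fgfrl1 and the 3 in Gpd1l are shown with the seed match in capitals.
Iscu: aagaagctacgcaaaACGCACAc
Efna3: gacaggacctatgcaACGCACAg
Fgfrl1: cagccagattcacacACGCACAt
Gpd1l site 1: caactacagacacacACGCACAt
Gpd1l site 2: gtcgacctcagtgaaACGCACAc
Gpd1l site 3: agtcccacacctaaaACGCACAg
Their positions in GRCm39 are chr5:113916036-113916058 (plus strand), chr3:89221972-89221994 (minus strand), chr5:108854276-108854298 (plus strand) and, for Gpd1l on the minus strand, chr9:114731286-114731308, chr9:114729867-114729889 and chr9:114729575-114729597. A match is a run of letters and was not tested as a site.

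None of the 15 target genes reached more than 15 counts in any library, so the table could not show whether they fell. Only 1 passed the filter in astrocytes (Ptpn1), 1 in microglia (Gpd1l) and 2 in neurons (Ndufa4 and Casp8ap2), and none was called by edgeR or DESeq2. Iscu had 3, 3 and 3 counts in microglia WT and 2, 2 and 1 in microglia KIN. Gpd1l, a glycerol-3-phosphate dehydrogenase-like protein, had 5, 0 and 5 against 2, 0 and 1 (−1.43 ± 1.16, edgeR adjusted p = 0.496), and Ndufa4, a subunit of the respiratory chain, had 1, 2 and 2 against 1, 3 and 3. Efna3, which encodes ephrin-A3, had 3 counts over microglia WT, 1 over microglia KIN and 0 in astrocytes and neurons. In astrocytes Iscu had 6 counts over WT and 2 over KIN, and Ndufa4 had 11 and 10. In neurons Iscu had 5 and 10, and Ndufa4 had 9 and 24.

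Of 374 mature miRNAs with at least 5 counts in at least 6 libraries, the profile most like that of miR-210-3p over the 18 libraries was that of miR-378a-3p, a miRNA of metabolism made from an intron of Ppargc1b (Pearson r = 0.97 of log2 CPM). The next 7 were let-7i-5p, miR-500-3p, miR-24-3p, miR-3068-5p, miR-140-5p, miR-26b-5p and miR-99a-3p, with r of 0.96 to 0.94. The points share libraries and their totals, and the 6 neuron libraries have a low miRNA share, so the values are a description. With Spearman's coefficient 2 of the 8 remained among the first 8, miR-378a-3p dropped to place 30 (0.86) and miR-3074-5p came first (0.96), and with each fraction centred on its own mean 2 remained, miR-378a-3p (r = 0.82, again at the top) and miR-140-5p.

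miR-378a-3p stood at 89.3 ± 5.97 CPM in microglia WT and 200 ± 56.2 CPM in microglia KIN, at 67.4 ± 22.2 and 80.8 ± 5.30 CPM in astrocytes, and at 14.8 ± 2.27 and 14.9 ± 2.56 CPM in neurons. Its log2 fold change in microglia was 1.36 ± 0.24, against 2.95 for miR-210-3p and a median of 0.46 for all mature miRNAs. The 8 miRNAs were chosen for their likeness over these same libraries, so a rise in microglia KIN is no separate finding. miR-3068-5p came closer in size (1.60 ± 0.26), with 27.8 ± 4.99 CPM in microglia WT and 72.6 ± 15.4 CPM in microglia KIN. The other 6 had fold changes of 0.50 to 1.22 in microglia.

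**Figure D4:**
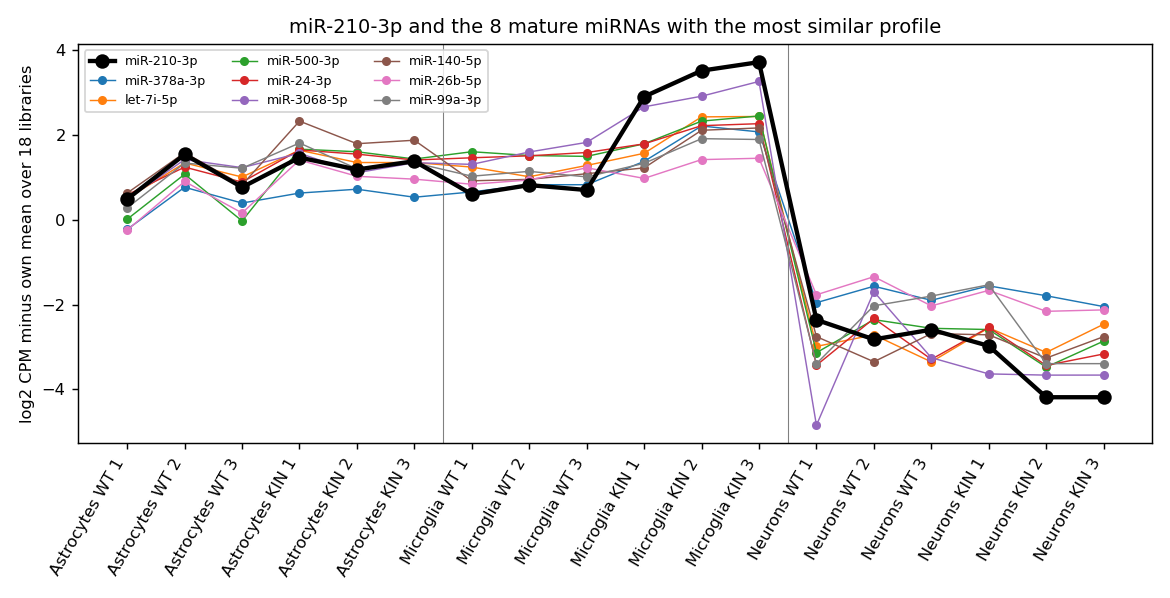
Log2 CPM of miR-210-3p (thick black line) and of the 8 mature miRNAs with the highest Pearson correlation with it, each less its own mean over the 18 libraries. Vertical lines part the astrocyte, microglia and neuron libraries. All 9 lines drop in the 6 neuron libraries, and miR-210-3p is the highest of them in the 3 microglia KIN libraries.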

How the data were processed

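The authors trimmed reads with Cutadapt 4.6 (minimum length of 20 bases) and aligned them with Bowtie2 2.4.4 in local mode to mature miRNAs, tRNAs, piRNAs, Ensembl non-coding RNAs and Ensembl cDNAs in turn (build mm39, GRCm39), then counted them with HTSeq 2.0.2 without regard to strand. A hairpin row therefore holds what the mature rows left. The library kit carries molecular tags (UMIs), but their use in counting is not given in the sources used here. The exact intervals take each count as a separate molecule and do not cover the spread between libraries. The deposited values are raw counts per feature. A further 36 columns of the libraries (headed tpm or gm), and the authors' columns of fold changes and p-values, were not used.

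Counts were tested in each fraction with edgeR 4.0.16 (R 4.3.3; TMM scaling, quasi-likelihood test, Benjamini-Hochberg adjustment) on features that reached 5 counts in 2 or more of the 6 libraries. A call needed an adjusted p no higher than 0.05 and a log2 fold change of 1 or more. For gene lists, transcripts were summed by symbol over the whole table, and 72 of 72 listed genes matched. Microglia and astrocytes were compared in 1 fit of 18 libraries. Intervals came from SciPy 1.17.1. On simulated counts with known changes of 2 (log2), 86% of the changes were found in astrocytes (5587 features), 78% in microglia (4819) and 55% in neurons (4760). p-values measure the spread among these libraries.

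The members and all lists were chosen with earlier results of these data known. Genes were named by rule: both arms, the hairpin and its neighbours, the 8 most alike miRNAs, the miRNAs just above and below miR-210-3p in the microglial order, every list member called, and Hif1a, Egln3, Bnip3, Vegfa, Iscu, Ndufa4 and Efna3. Epas1, Car9, Gpd1l, Fgfrl1, Ptpn1, Casp8ap2, miR-138-5p and the marker miRNAs were added after their values were seen. Alternatives were DESeq2 1.42.0, library totals, scaling to mature miRNAs, no filter, 1 fit of 18 libraries, a replicate block, single transcripts and leaving out each library.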

Additional observations from a re-analysis of the deposited data

How the results depend on the processing

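The log2 fold change of miR-210-3p in microglia was 2.55 with mature miRNA scaling, that in astrocytes turned to −0.10, and the KIN difference of microglia from astrocytes was 2.55. This scaling moved the median KIN over WT change of all features to −0.84 in astrocytes and −0.50 in microglia. Library totals moved those medians to −0.31 and −0.33. Of the features called, 21.9% were higher in KIN in astrocytes (11.8% with library totals, 1.28% with mature miRNA scaling, 33.6% with DESeq2) and 32.6% in microglia (19.3%, 7.69% and 30.6%). The WT ratios to neurons were 3.95 for astrocytes and 3.78 for microglia on mature miRNA totals, and the KIN ratios 19.2 and 101, an alternative chosen after seeing the data. For neurons, and for miR-210-5p in astrocytes, no fold change was fitted because of the filter.

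The features called numbered 466 in astrocytes (237 in 1 fit of 18 libraries, 1251 with mature miRNA scaling), 215 in microglia (400 in 1 fit, 379 with DESeq2, 364 with mature miRNA scaling, 426 with no filter) and 0 in neurons (26 with mature miRNA scaling, 75 with no filter). Of the hypoxia-induced miRNAs, astrocytes had 3 called in 1 fit and with DESeq2, 0 with either other scaling and 5 with no filter, and microglia had 3 with either scaling and with no filter. The 1 call among HIF-acting miRNAs in microglia became 0 with either scaling. Of the oxygen sensors and HIF subunits, astrocytes had 1 with library totals, 2 with mature miRNA scaling and 1 with single transcripts, and microglia had 1 in 1 fit, 2 with mature miRNA scaling and 1 with no filter. The 3 HIF target genes of astrocytes became 0 in 1 fit and 1 with DESeq2 or single transcripts, and microglia had 1 with DESeq2. Of the 8 most alike miRNAs, 2 stayed with Spearman's coefficient and 2 with centred fractions. The cause of these shifts was not tested.

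Leaving out each library gave 41 to 1527 called features in astrocytes, 0 to 940 in microglia and 0 to 52 in neurons. The fold change of miR-210-3p was 0.21 to 0.87 in astrocytes and 2.75 to 3.11 in microglia, where that of miR-210-5p was 2.59 to 3.24 in the 4 fits in which it passed the filter, which it did not without KIN replicate 2 or 3. The difference of microglia from astrocytes was −0.49 to 0.35 in WT and 2.12 to 2.47 in KIN, and the KIN effect differed by 1.96 to 2.79. List calls ranged over 0 to 9 hypoxia-induced miRNAs, 0 to 2 sensors and subunits and 0 to 3 HIF targets in astrocytes, and over 0 to 5, 0 to 1 and 0 to 1 in microglia, with 0 to 1 HIF-acting miRNAs. The ratios to neurons were 13.9 to 21.3 and 12.8 to 16.3 in WT and 70.1 to 112 and 308 to 520 in KIN, where neurons replicate 1 was kept because it holds the only neuron count.

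The labels do not tie a replicate number to a littermate pair, so whether the numbers pair WT with KIN libraries could not be told. Levels were centred within each group of 3 libraries, which constrains the correlations. Same-numbered WT and KIN libraries correlated at 0.0258 to 0.0532 in astrocytes, −0.205 to 0.165 in microglia and −0.206 to −0.0256 in neurons. With the replicate block, microglia had 49 features called, 2 hypoxia-induced miRNAs and 0 HIF-acting miRNAs. Between fractions, same-numbered libraries of astrocytes and microglia correlated at 0.0373 to 0.34 in WT and −0.208 to −0.0163 in KIN. With a block on the number within genotype, an alternative chosen after seeing the data, the difference of microglia from astrocytes was −0.19 in WT and 2.20 in KIN, the KIN effect differed by 2.39, and 85 features in place of 12 passed the test of that difference.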
